A study of Saccharomyces cerevisiae W303 with 3 samples.

Results

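The genes described here encode the enzymes that make, branch and break down glycogen in budding yeast, together with the enzymes that convert glucose 6-phosphate to UDP-glucose, its building block. They are GSY1, GSY2, GLG1, GLG2, GLC3, GPH1, GDB1, PGM1, PGM2 and UGP1, and they were picked by name from what is known of the pathway, not from their measured values. These 10 genes are among the 6252 genes with a probe on the array, and all 10 passed the filter on dim signal. Haploid wild-type Saccharomyces cerevisiae W303, which carries auxotrophic alleles of LEU2, TRP1, URA3, ADE2 and HIS3 and a can1 allele, was grown in continuous culture at 30 °C in a synthetic medium with glycerol and a little glucose, at a dilution rate of 0.17 to 0.18 volumes per hour. The study compared RNA of the same culture after 40 and after 240 generations, to ask what changes in a population kept under constant conditions. There were 3 independent cultures (Replicates 1, 2 and 3), each started from a single colony, and each was hybridized to 2 two-color arrays with the Cy3 and Cy5 dyes exchanged. Every value is from a whole population, in which more RNA per cell and a larger share of cells with the RNA cannot be told apart. Mutations in HOG1, MSY1 and URE2, none of them in every culture, were found by the study. Those in HOG1 were in Replicates 1 and 2, those in MSY1 in Replicates 1 and 3, and that in URE2 in Replicate 2. The part of these mutations in the values below was not tested.

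Glycogen is a branched glucose polymer that yeast stores when growth slows or carbon runs short, and draws on later. Phosphoglucomutase (PGM1, PGM2) turns glucose 6-phosphate into glucose 1-phosphate, and UDP-glucose pyrophosphorylase (UGP1) turns that into UDP-glucose. Glycogenin (GLG1, GLG2) primes a chain, glycogen synthase (GSY1, GSY2) lengthens it, the branching enzyme (GLC3) adds branches, and phosphorylase (GPH1) with the debranching enzyme (GDB1) takes the polymer apart. Several of these genes are known targets of the general stress response, which acts through the transcription factors Msn2 and Msn4. Trehalose, the other storage carbohydrate, and the glucan of the cell wall are made from the same UDP-glucose.

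All values are log2 ratios of 240 over 40 generations, so that a negative value means less RNA at 240 generations. They were tested across all genes with limma, with Benjamini-Hochberg adjustment at 0.05. The arrays gave 83.9% to 91.5% of genes above background at 40 generations and 85.1% to 89.2% at 240 generations. The 10 genes were above background on all 6 arrays at both time points and had no saturated pixels. The 2 arrays of a culture gave Pearson's r of 0.95 to 0.96 across genes, which are not independent replicates. ACT1, which encodes actin, had a log2 ratio of 0.02 ± 0.11 (SD, n = 3, limma adjusted p = 0.91). The strain is given as mating type a, but markers of the other type were detected on every array and most a-specific markers were not. The 4 alpha-specific genes (STE3, SAG1, MF(ALPHA)1 and MF(ALPHA)2) were above background on all 6 arrays at both time points. Of 7 a-specific genes only STE6 was, and MFA2 and AGA2 were above background on 0 arrays.

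PGM2 and UGP1, which act next to each other on the way to UDP-glucose, had 2.37-fold and 2.35-fold less RNA at 240 generations. Without Replicate 1 the log2 ratio of UGP1 moved from -1.23 to -0.70, and that of PGM2 from -1.24 to -1.10. PGM2 and UGP1 were the only members past the test, 2 of 10 lower and 0 higher. Of the 5495 genes tested, 13.8% were lower and 14% were higher, or 27.8% in either direction; nothing particular to the 10 genes was read from their count. An unadjusted p under 0.05 was reached by 3 of the 10 genes (PGM2, UGP1 and GDB1) and by 43.5% of all genes. Of all the calls 50.3% were higher, against 39.4% when arrays were centred on their medians without loess. The median of the 10 genes was -0.20, against -0.01 for all genes tested, whose quartiles were -0.31 and 0.27. In single cultures the median of the 10 genes was -0.66, -0.16 and -0.14 in the order of the replicates. A negative value in all 3 cultures was found for 6 of the 10 genes and for 32.8% of all genes. A positive value in all 3 was found for 0 of the 10 and for 31% of all genes.

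**Figure D1:**
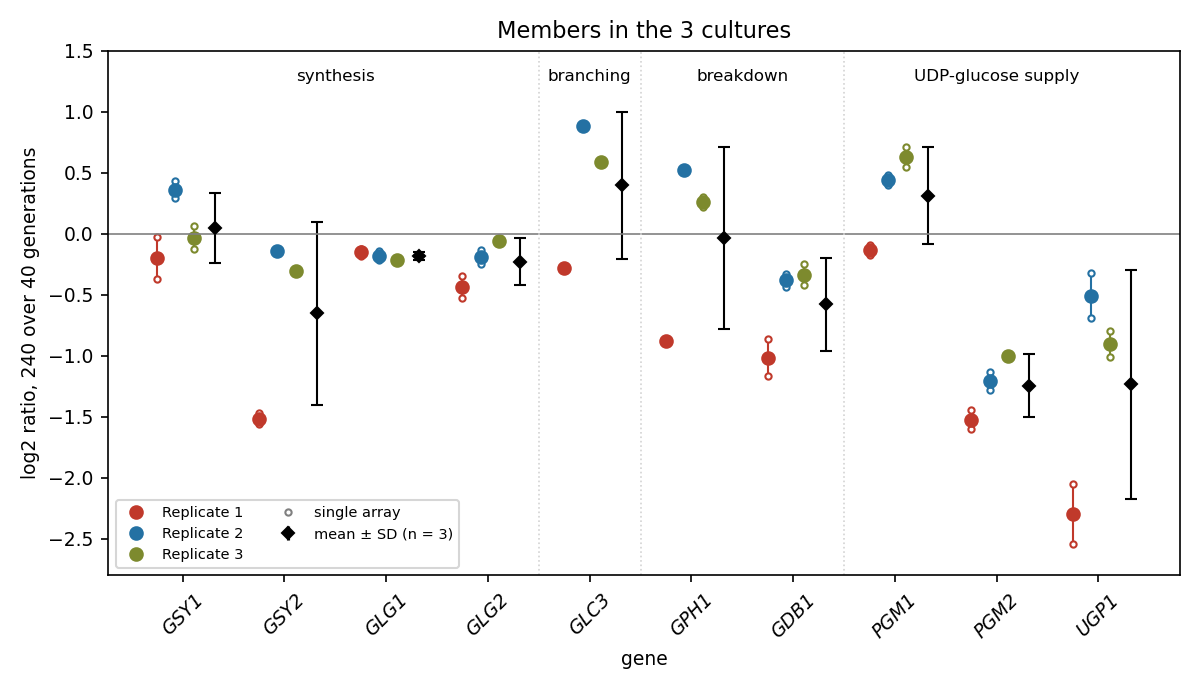
Log2 ratio of 240 over 40 generations (y axis) of the 10 genes (x axis), ordered by role. Filled circles are cultures, open circles the 2 dye-swapped arrays of each culture, diamonds the mean with the SD over 3 cultures. PGM2 lies between -1.52 and -1.003 in the 3 cultures, whereas UGP1 runs from -2.29 to -0.51 and GPH1 from -0.88 to 0.52.

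PGM2 encodes the major phosphoglucomutase isoform. In Replicates 1, 2 and 3 its log2 ratios were -1.52, -1.20 and -1.003. The mean fell by 1.24 (SD 0.26 over 3 cultures, limma adjusted p = 0.0049). The 3 cultures were close to each other, and the gene was negative on all 6 arrays. Its normalized log2 intensity was 11.84, 11.83 and 11.15 at 40 generations in Replicates 1, 2 and 3, and 10.31, 10.63 and 10.14 at 240 generations. Every culture was thus lower at 240 generations than any was at 40, as held for 17% of all genes tested. PGM2 passed the test in each of the 19 alternative settings, with adjusted p between 3.38e-04 and 0.034.

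PGM1 encodes the minor isoform of the same enzyme. Its log2 ratios in Replicates 1, 2 and 3 were -0.13, 0.44 and 0.63. With a mean of 0.31 ± 0.40 (SD, n = 3, limma adjusted p = 0.21) it did not pass, and its signals at the 2 time points overlapped. Its normalized log2 intensity was 9.81, 9.88 and 10.73 at 40 generations and 9.68, 10.32 and 11.36 at 240 generations, in the order of the replicates. Replicate 3 had the highest signal of the 3 cultures at either time point. Without Replicate 1, PGM1 passed with a log2 ratio of 0.54 (limma adjusted p = 0.0066). That fit rests on 2 cultures, and 1229 of the 5495 genes tested were higher in it, against 768 with all 3 cultures. PGM1 and PGM2 lay apart in every culture. The difference of their log2 ratios (PGM2 minus PGM1) was -1.39, -1.65 and -1.63 in the order of the replicates, with a mean of -1.56 ± 0.15 (SD, n = 3). It was negative on all 6 arrays, between -1.72 and -1.35. The exact two-sided sign-flip permutation test over the 3 cultures gave p = 0.25, which is the smallest it can give, and 0.50 after adjustment over the 4 differences tested here.

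UGP1 encodes UDP-glucose pyrophosphorylase, an essential enzyme that also feeds cell wall synthesis and protein glycosylation. Log2 ratios of -2.29, -0.51 and -0.90 were measured in Replicates 1, 2 and 3. The mean fell by 1.23 (SD 0.94 over 3 cultures, limma adjusted p = 0.045). The size of the drop differed among cultures, from 4.91-fold in Replicate 1 to 1.42-fold in Replicate 2. Its normalized log2 intensity was 15.20, 14.72 and 14.69 at 40 generations, in the order of the replicates. At 240 generations it was 12.91, 14.22 and 13.79. Every culture was lower at 240 generations than any was at 40, as held for 17% of all genes tested. Among the 10 genes this held for PGM2, UGP1 and GLG2. The largest difference between the 2 dye-swapped arrays of any of the 10 genes, 0.49, belonged to UGP1. Its call held in 16 of 19 alternative settings, and was lost with no filter on dim probes (adjusted p = 0.077), without pairing of the time points (0.054) and without Replicate 2 (0.054).

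**Figure D2:**
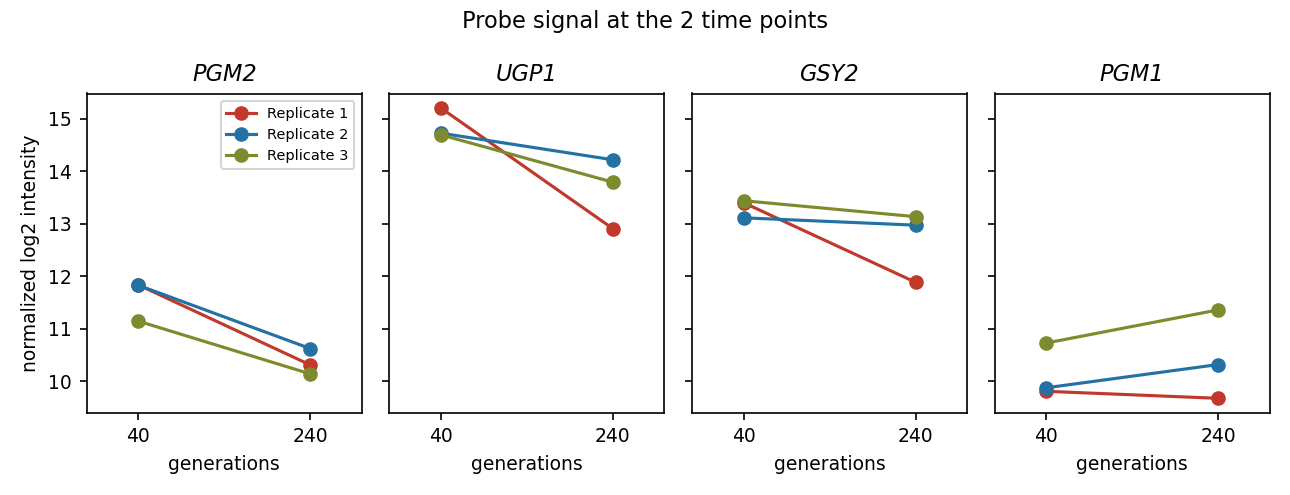
Normalized log2 intensity of the probe (y axis) at 40 and 240 generations (x axis) for PGM2, UGP1, GSY2 and PGM1. Each line joins the 2 time points of 1 culture, with its 2 arrays averaged. PGM2 drops in each of the 3 cultures, from 11.15 to 11.84 down to 10.14 to 10.63, while in UGP1 and GSY2 Replicate 1 ends below the other cultures (12.91 and 11.89).

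The genes of chain initiation and elongation did not pass the test. GSY2 encodes the predominant glycogen synthase, and its log2 ratios were -1.51, -0.14 and -0.30 in Replicates 1, 2 and 3. Its mean was -0.65 ± 0.75 (SD, n = 3, limma adjusted p = 0.13). The value of Replicate 1 corresponds to a 2.86-fold lower signal, whereas Replicates 2 and 3 were lower by 1.10-fold and 1.23-fold. At 40 generations the normalized log2 intensity of GSY2 was 13.40, 13.11 and 13.44 in Replicates 1, 2 and 3, and at 240 generations it was 11.89, 12.97 and 13.13. Replicate 1 was thus near the others at 40 generations and below them at 240 generations.

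GSY1, the other glycogen synthase gene, had log2 ratios of -0.20, 0.36 and -0.03 in Replicates 1, 2 and 3. Its mean was 0.04 ± 0.29 (SD, n = 3, limma adjusted p = 0.84). With its values on either side of 0, its sign changed to negative with median centring (-0.12). GSY2 lay below GSY1 on all 6 arrays, with differences of their log2 ratios (GSY2 minus GSY1) of -1.32, -0.50 and -0.27 in the order of the replicates. The mean difference was -0.70 ± 0.55 (SD, n = 3, exact two-sided sign-flip permutation p = 0.25, adjusted 0.50), again at the smallest p that 3 cultures allow.

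The glycogenin genes had small values in each culture. GLG1 had log2 ratios of -0.15, -0.18 and -0.22 in the order of the replicates, with a mean of -0.18 ± 0.03 (SD, n = 3, limma adjusted p = 0.23). GLG2 had -0.44, -0.19 and -0.06, with a mean of -0.23 ± 0.19 (limma adjusted p = 0.21). Both genes were negative on all 6 arrays. Their log2 ratios differed by -0.05 ± 0.22 (GLG2 minus GLG1, SD, n = 3, exact two-sided sign-flip permutation p = 0.75, adjusted 1), less than the spread between cultures. Probe sequences were not used here, so cross-hybridization between the genes of a pair was not tested.

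GLC3, which encodes the branching enzyme, had values of both signs. Its log2 ratios were -0.28, 0.88 and 0.59 in Replicates 1, 2 and 3, with a mean of 0.40 ± 0.60 (SD, n = 3, limma adjusted p = 0.23). The 2 arrays of each culture differed by at most 0.03. Without Replicate 1, GLC3 passed the test with a log2 ratio of 0.73 (limma adjusted p = 0.0024), as did 1229 of the 5495 genes tested in the higher direction. The 2 spots of GLC3 on an array differed by up to 5.14 in log2 intensity, but by at most 0.24 in log2 ratio, so its level is less certain than its ratio.

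The breakdown genes differed from each other. GPH1, the phosphorylase gene, had log2 ratios of -0.88, 0.52 and 0.26 in Replicates 1, 2 and 3, with a mean of -0.03 ± 0.75 (SD, n = 3, limma adjusted p = 0.94). It was negative in 1 culture and positive in 2, each time with the same sign on both arrays. Without Replicate 1 its log2 ratio was 0.39 (limma adjusted p = 0.027), in a fit that called 1229 of the 5495 genes tested higher. GDB1, whose product removes the branches that phosphorylase leaves, was negative in each culture, with log2 ratios of -1.02, -0.38 and -0.34 in Replicates 1, 2 and 3. Its mean of -0.58 ± 0.38 (SD, n = 3, limma adjusted p = 0.052) just missed the threshold. GDB1 passed in 6 of the 19 alternative settings, with a range of adjusted p from 0.025 to 0.22.

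The roles were also compared as averages. The 3 genes of UDP-glucose supply had means of -1.32, -0.42 and -0.42 in Replicates 1, 2 and 3. The 4 genes of chain initiation and elongation had means of -0.58, -0.04 and -0.15, and the 2 breakdown genes -0.95, 0.07 and -0.04, in the same order. The mean of the former minus that of the latter was 0.37 in Replicate 1 and -0.11 in each of the others, or 0.05 ± 0.28 (SD, n = 3, exact two-sided sign-flip permutation p = 1). With GLC3 counted as a 5th synthesis gene, the difference was 0.43, 0.07 and 0.03, or 0.18 ± 0.22 (exact sign-flip permutation p = 0.25). The sign in Replicates 2 and 3 thus depends on where the branching enzyme is placed, a choice that was settled after the values were seen. With 3 cultures the permutation test cannot give a p below 0.25, the value with GLC3 counted. It therefore could not tell either version from 0.

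Replicate 1 had the lowest log2 ratio of the 3 cultures in 9 of the 10 genes, with GLG1 as the exception. Among all genes tested, 42.1% were lowest in Replicate 1. In 4 genes Replicate 1 lay at least 1 below the mean of Replicates 2 and 3, as held for 3.79% of all genes. The gap was -1.59 for UGP1, -1.29 for GSY2, -1.27 for GPH1 and -1.01 for GLC3. The number of such genes among the 10 was 4 with median centring and 3 with the authors' log2 ratios. The gap and its cutoff of 1 were not among the results planned beforehand. GLC3, GPH1 and PGM1 were negative in Replicate 1 and positive in Replicates 2 and 3, a pattern of 10.3% of all genes. The gap of GSY2 lay at 240 generations, and that of UGP1 at both time points. At 240 generations the normalized log2 intensity of Replicate 1 differed from the mean of the other cultures by -1.10 for UGP1 and -1.17 for GSY2, against 0.49 and 0.13 at 40 generations. PGM2 had a gap of -0.42 only. With 1 culture per replicate, differences between cultures were not tested. The cultures also differed in the mutations in HOG1, MSY1 and URE2, whose part in the gaps was not tested.

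Replicate 1 also stood apart over the whole array. Across genes, it correlated with Replicates 2 and 3 at r = 0.71 and 0.66, against 0.88 between Replicates 2 and 3. Across genes, the difference of a culture's log2 ratio from the mean of the other cultures had a Spearman's rho with coding length of -0.37, 0.09 and 0.43 in Replicates 1, 2 and 3. Genes are not independent replicates, and the values are given as a description. The 10 genes have coding lengths of 1143 to 4611 bp. With the trend with length removed in each culture, 3 of the 10 genes still lay at least 1 below in Replicate 1, against 3.6% of the 5340 genes with a length, and GLC3 had a gap of -0.83. The gaps of UGP1, GSY2 and GPH1 were then -1.46, -1.11 and -1.10.

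**Figure D3:**
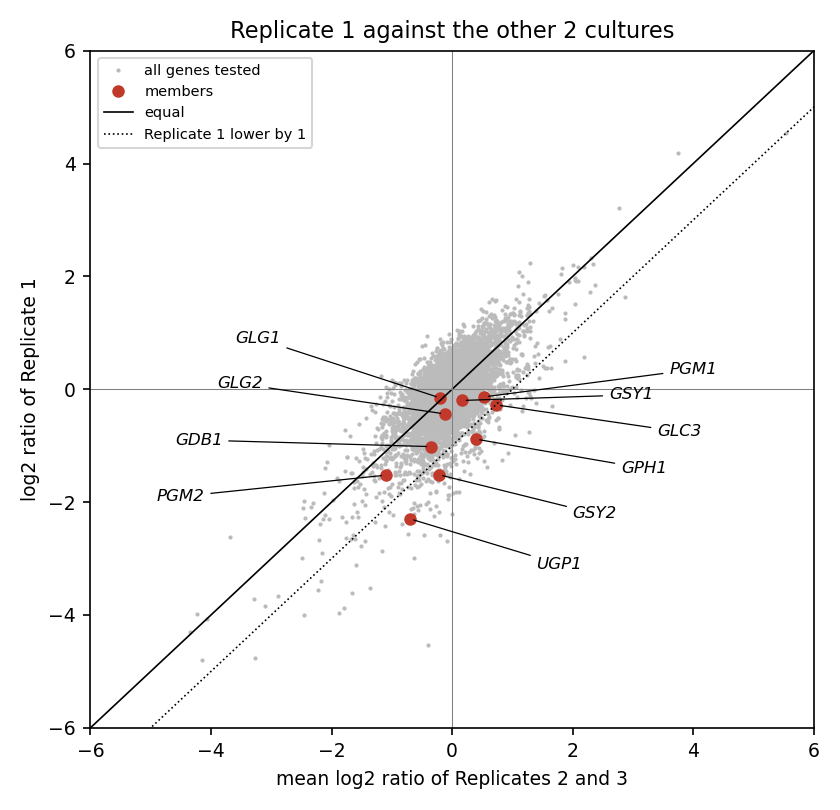
Log2 ratio of Replicate 1 (y axis) against the mean log2 ratio of Replicates 2 and 3 (x axis) for the genes tested (grey) and the 10 genes described (red). The solid line marks equal values and the dotted line values lower by 1 in Replicate 1. UGP1, GSY2, GPH1 and GLC3 lie on or below the dotted line, and PGM2 lies near the solid line with a gap of -0.42.

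The study also used 4 criteria. They require an absolute mean of 0.9 or more, p up to 0.05, an SD up to 0.8 and a ratio of SD to squared mean up to 0.4. With limma's p, PGM2 met them and UGP1, with an SD of 0.94, did not. Among all genes tested, 3.33% met the criteria with lower and 2.42% with higher expression. These were 316 genes, and 433 met the criteria with the authors' log2 ratios. Neither is the study's own list, which rests on its own p-values.

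The genes whose 6 array values were nearest to those of PGM2 were RPL38 (root mean square distance 0.15), which encodes a ribosomal protein, SDH9 (0.16), a paralog of the succinate dehydrogenase flavoprotein gene, LYS1 (0.17), which encodes the last enzyme of lysine synthesis, GPD1 (0.17), the glycerol 3-phosphate dehydrogenase gene of the osmotic response, and PCK1 (0.20), the phosphoenolpyruvate carboxykinase gene. Their mean log2 ratios ran from -1.39 (PCK1) to -1.13 (RPL38). The distance describes likeness over 6 arrays of 3 cultures.

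Genes that act on glycogen enzymes or share their substrates were read in the same way. In 7 lists with 42 genes, 41 were tested, of which 5 were higher and 11 were lower, against 14% higher and 13.8% lower among all genes tested. These shares are also the background of each list's own count. All 16 calls were kept when Replicate 1 was left out, but only 2 (TPS2 and TPS3) when Replicate 2 was, 6 when Replicate 3 was, and 3 in the unpaired fit. Of the 1526 calls over all genes, 1526, 298, 651 and 432 were kept in these settings, in the same order. Keeping every call without Replicate 1 was thus not particular to these lists.

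Glycogen synthase is activated when the phosphatase Glc7 removes its phosphates, and targeting subunits bring Glc7 to glycogen. Of the 6 genes of this group, GAC1, a targeting subunit, fell (-0.68 ± 0.29, SD, n = 3, limma adjusted p = 0.024), PIG1, a related subunit, rose (0.50 ± 0.24, limma adjusted p = 0.042), and 4 did not pass. Among 9 genes of kinases and cyclins that act on glycogen enzymes, 2 rose, 2 fell and 5 did not pass. PCL7 (0.80 ± 0.14, limma adjusted p = 0.0092), a cyclin of the kinase Pho85, and PHO85 itself (0.51 ± 0.14, limma adjusted p = 0.027) rose. PCL8 (-0.70 ± 0.13, limma adjusted p = 0.012), a cyclin that directs Pho85 to glycogen synthase, and PSK2 (-0.43 ± 0.13, limma adjusted p = 0.042), a kinase of sugar partitioning, fell. The medians of these lists were 0.15 and 0.28.

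Protein kinase A holds back glycogen storage, and the stress factors promote it. Of 7 genes of this group 3 fell and 0 rose (13.8% of all genes were lower), with a median of -0.26. GIS1, a transcription factor of the nutrient response, had a log2 ratio of -0.89 ± 0.56 (SD, n = 3, limma adjusted p = 0.034), TPK2, a catalytic subunit of protein kinase A, -0.66 ± 0.24 (limma adjusted p = 0.020) and MSN2, a factor of the general stress response, -0.47 ± 0.16 (limma adjusted p = 0.037). MSN4, which encodes a further factor of the general stress response, was among the 4 that did not pass (0.40 ± 0.20, limma adjusted p = 0.062). Its log2 ratio was positive in each culture (0.23, 0.61 and 0.35 in Replicates 1, 2 and 3), opposite in sign to MSN2.

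Of 6 genes that supply hexose phosphates, the hexokinase genes HXK1 (0.58 ± 0.20, SD, n = 3, limma adjusted p = 0.024) and HXK2 (0.54 ± 0.28, limma adjusted p = 0.040) rose and 4 did not pass, among them PGM3, a further phosphoglucomutase gene. The median was -0.02. SGA1, the glucoamylase gene of sporulation, had -0.21 ± 0.26 (limma adjusted p = 0.29).

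Of 7 trehalose genes, 3 fell, 0 rose and 4 did not pass (13.8% of all genes were lower), with a median of -0.43. TSL1 (-1.20 ± 0.57, SD, n = 3, limma adjusted p = 0.017) and TPS3 (-1.07 ± 0.08, limma adjusted p = 0.0040) encode regulatory subunits of the trehalose synthase complex, and TPS2 (-1.01 ± 0.30, limma adjusted p = 0.0097) encodes its phosphatase. The study picked out TPS2, TPS3 and TSL1 as stress genes on these samples, so the count is not independent evidence. The median of the list was -0.83, -0.31 and -0.43 in Replicates 1, 2 and 3. It was lowest in Replicate 1, as was the median of each of the other lists around glycogen. Of the 7 trehalose genes, 4 were lowest in Replicate 1, against 42.1% of all genes tested. Of 5 other genes tested whose products use UDP-glucose, the glucan synthase genes FKS1 (-1.02 ± 0.40, limma adjusted p = 0.014) and GSC2 (-0.63 ± 0.31, limma adjusted p = 0.030) fell and 3 did not pass. GAL10 was not above background on any array.

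**Figure D4:**
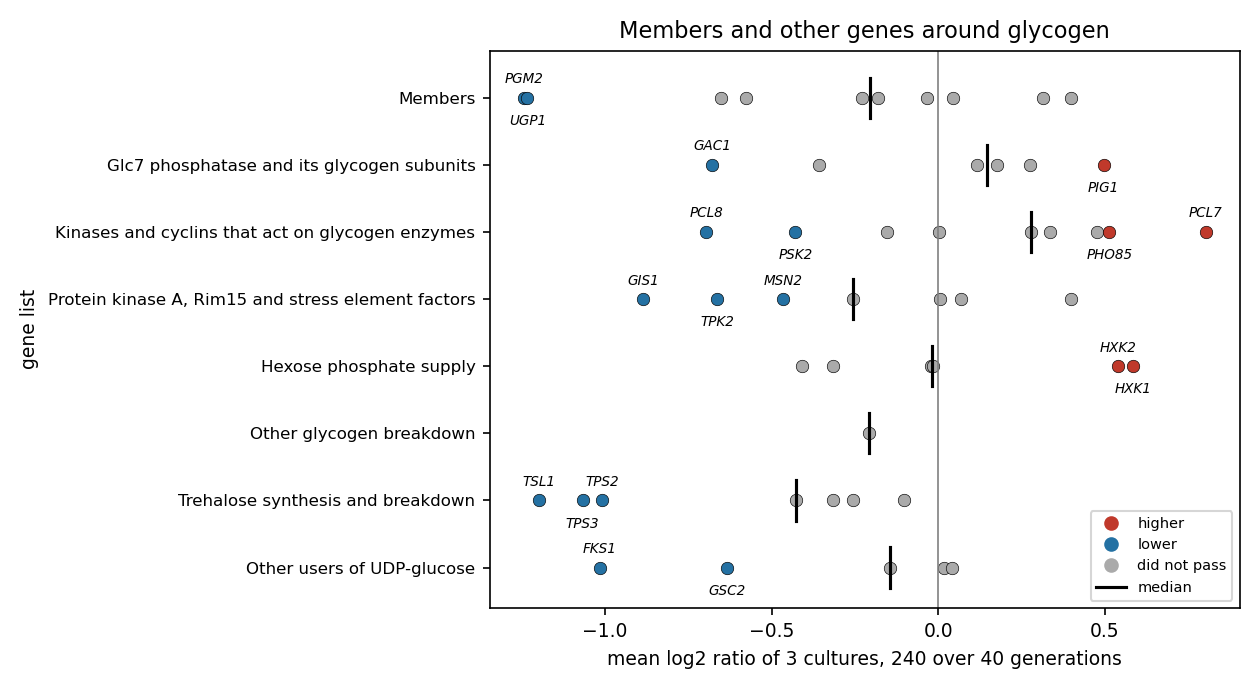
Mean log2 ratio over 3 cultures, 240 over 40 generations (x axis), of each gene tested in the 10 genes described and in 7 further lists (y axis). Red and blue points passed limma's test as higher or lower, grey points did not, and bars are medians. PGM2 and UGP1 lie at -1.24 and -1.23, next to the trehalose genes TSL1 (-1.20), TPS3 (-1.07) and TPS2 (-1.01).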

How the data were processed

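Each of the 3 cultures was measured on 2 dye-swapped Agilent yeast arrays (6 arrays, 15744 spots each, 2 spots per gene). The authors labeled 5 µg of total RNA, hybridized and scanned them and quantified the spots with GenePix Pro. The deposited files hold pixel intensities of spot and local background in Cy5 and Cy3 with no normalization, and the percent of saturated pixels. The authors' log2 ratios, normalized in Acuity by a method not given in the sources used here, are averages over the 2 arrays of a culture and were used as an alternative. Dye assignments were taken from the names of the arrays, and the turned ratios correlated positively with the authors' ratios (r = 0.97, 0.98 and 0.98 after averaging).

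In R 4.3.3 with limma 3.58.1, background was corrected on the medians by normexp (offset 50), each array was loess normalized with control spots at weight 0, then values were averaged over spots and over the 2 arrays per culture. Signs were turned to 240 over 40 generations. Genes above background (over 2 background SDs) at one of the time points on 4 or more arrays, 5495 of 6252, were tested with limma's lmFit and eBayes against 0, with 3.73 prior degrees of freedom. Levels were taken per channel after loess and Aquantile normalization. Median intensities were 518 to 915.5 in Cy5 and 577 to 1026.5 in Cy3. The precision of the tests rests on 3 cultures, each measured on 2 arrays. No spot was flagged as bad, and 963 to 1728 spots per array, none of them of the 10 genes, were flagged as not found and kept. Emptied lines of 4 further genes were skipped. Lengths and updated gene names came from the RefSeq annotation of strain S288C, which 5753 genes matched.

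The pairing of the time points comes from the design, since each array carries both time points of 1 culture. Genes named are the 10 genes, ACT1, the 5 genes nearest to PGM2, and in each list the passing genes of largest mean, at most 4, or at most 2 genes if no gene passed; MSN4, PGM3 and GAL10 were named after their values were seen. The members, the lists and the tests were chosen with earlier results of these data known. An item of the lists is not reported here. The calculation was tested on simulated data. The alternatives, whose effect is given at the end, changed the background correction, spot statistic, normalization, flags, filter, dye orientation, prior, pairing, length trend, replicates and source of the ratios. The study's qRT-PCR and genome sequences were not analysed here.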

Additional observations from a re-analysis of the deposited data

How the results depend on the processing

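Of the 19 alternatives per gene, PGM2 kept its call in 19 and UGP1 in 16. The number of the 10 genes lower was 1 with no filter on dim probes and 1 with no replicate block (the time points of a culture not paired), and 1 to 3 when each replicate was left out; the number higher was 0 to 3 in the same settings, with 3 without Replicate 1. Over all genes, 432 were called with no replicate block, all among the 1526 called with pairing, and 300 to 2487 when each replicate was left out (2487 without Replicate 1, 300 without Replicate 2 and 674 without Replicate 3). A fit without 1 of the cultures rests on 2. With the 2 criteria of the methods (mean and p), 2 of the 10 genes passed in place of 1.

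The sign of GSY1 turned with median centring (-0.12), with 240 generations in Cy3 only (-0.065), without Replicate 2 (-0.11, against 0.17 without Replicate 1), with the authors' log2 ratios and with the series values (-0.037 in both). The sign of GPH1 turned with scaling between arrays (0.011), with the trend with coding length removed (0.071) and without Replicate 1 (0.39, against -0.31 without Replicate 2). Both genes had values of both signs among the cultures. The cause of the changes of sign was not tested. The alternatives for the gaps of Replicate 1 and for the differences between paralogs and roles, the role of GLC3 included, were added after seeing the data. All 10 genes were above background on all 6 arrays.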
